A study of Homo sapiens with 6 samples.

Results

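AcNEIL1, the acetylated form of the DNA glycosylase NEIL1, was repeatedly detected at 2413 places on chromosomes 1 to 22 that lie at least 50 kb from the body of any RefSeq protein-coding gene. These desert regions were chosen by peak presence. The peak lists of the 3 ChIP libraries were merged wherever peaks overlapped by at least 1 bp, which gave 85138 regions. A region was kept if it had a peak in at least 2 of the 3 libraries and no coding gene within 50 kb. The libraries came from exponentially growing, untreated cells of HCT116, an established human colorectal cancer line, whose formaldehyde-fixed chromatin was pulled down with a rabbit antibody made for AcNEIL1. Each of the 3 AcNEIL1 libraries, called replicates 1, 2 and 3, had its own library of sheared input chromatin, and the 3 inputs entered only as the authors' peak-calling controls. There was no second treatment or genotype. Separate cultures are not named in the labels, and p-values therefore measure a spread between libraries that may be technical. The ChIP libraries held between 28814429 and 35222701 tags, and the lists held 39655, 59750 and 49482 autosomal peaks in replicates 1, 2 and 3.

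NEIL1 starts base excision repair by cutting oxidised bases out of DNA, and acetylation is a modification of the protein that the antibody was raised to see. Gene deserts are long stretches without coding genes. They often hold distant enhancers of developmental and growth genes, long non-coding RNA (lncRNA) genes, microRNA genes and repeated sequence.

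The sequences below are of annotated transcripts that desert regions overlap. The first 5 are promoters of lncRNA genes, each covering 250 bases before to 50 bases after the transcript start in RefSeq on GRCh38.p14. All overlap a desert region with a peak in every replicate; the first 4 belong to regions of high mean fold rank, and CRMA was added for its microRNA neighbour. A window can reach beyond its region, as that of LINC-PINT does. Capitals mark each CG dinucleotide, the site of DNA methylation in human cells, and each sequence is written 5′ to 3′ along the strand of its gene. The promoters lie at chr13:44310992-44311291 (plus strand) for LOC107984552, chr5:135134112-135134411 (plus) for LOC124901072 and chr7:130913261-130913560 (minus) for LINC-PINT. That of LOC442497 lies at chr7:379175-379474 (plus) and that of CRMA at chr20:62551512-62551811 (minus).
LOC107984552: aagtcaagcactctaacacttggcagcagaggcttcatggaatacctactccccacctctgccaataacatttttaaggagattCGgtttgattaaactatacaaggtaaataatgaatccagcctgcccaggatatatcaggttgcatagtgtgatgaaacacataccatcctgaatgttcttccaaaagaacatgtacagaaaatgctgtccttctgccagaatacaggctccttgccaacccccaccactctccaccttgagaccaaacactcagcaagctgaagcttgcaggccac
LOC124901072: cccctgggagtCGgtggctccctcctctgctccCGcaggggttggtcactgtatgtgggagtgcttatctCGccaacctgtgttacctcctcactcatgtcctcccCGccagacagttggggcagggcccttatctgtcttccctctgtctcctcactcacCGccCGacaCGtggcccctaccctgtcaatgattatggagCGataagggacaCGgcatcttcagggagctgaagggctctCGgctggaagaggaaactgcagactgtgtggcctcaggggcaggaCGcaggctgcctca
LINC-PINT: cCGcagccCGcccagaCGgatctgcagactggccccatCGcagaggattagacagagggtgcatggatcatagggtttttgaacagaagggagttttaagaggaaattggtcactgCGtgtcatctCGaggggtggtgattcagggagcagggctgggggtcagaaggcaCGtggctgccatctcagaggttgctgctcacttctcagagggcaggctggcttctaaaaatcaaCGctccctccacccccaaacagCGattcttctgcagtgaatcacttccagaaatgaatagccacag
LOC442497: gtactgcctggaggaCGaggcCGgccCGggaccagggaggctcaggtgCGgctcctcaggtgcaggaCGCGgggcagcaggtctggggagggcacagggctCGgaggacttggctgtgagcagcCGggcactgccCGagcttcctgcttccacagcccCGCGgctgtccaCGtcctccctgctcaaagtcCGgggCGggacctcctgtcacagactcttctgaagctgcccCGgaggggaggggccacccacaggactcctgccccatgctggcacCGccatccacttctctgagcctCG
CRMA: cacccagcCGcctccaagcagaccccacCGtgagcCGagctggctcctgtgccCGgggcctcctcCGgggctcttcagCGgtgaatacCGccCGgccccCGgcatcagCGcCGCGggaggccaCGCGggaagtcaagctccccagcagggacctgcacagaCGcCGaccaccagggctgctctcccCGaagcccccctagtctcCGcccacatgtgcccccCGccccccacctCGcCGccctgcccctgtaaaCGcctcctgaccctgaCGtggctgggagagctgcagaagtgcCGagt

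These promoters range from 1 CG in LOC107984552, at 45.0% GC, to 24 in CRMA, at 72.0% GC. The region over the LOC107984552 promoter had a fold over local background of 6.0, 5.80 and 6.05 by replicate, averaging 5.95 ± 0.132 (SD, n = 3), with pileups of 24, 23 and 35.3 tags. The region over the CRMA promoter had fold 3.97, 5.43 and 4.76. Each fold is that of the strongest peak in a region wider than the promoter window. LOC107984552 was picked for its fold rank, so this pair cannot show how CG content relates to fold.

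Desert regions also cover 6 microRNA genes, all of which matched the RefSeq table. Their mature sequences follow, with the seed (bases 2 to 8, the stretch that pairs with targets) in capitals. No 2 of the 5 share a seed. MIR8071-1 and MIR8071-2 are separate genes with the same mature sequence.
hsa-miR-1-3p: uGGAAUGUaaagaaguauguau
hsa-miR-133a-3p: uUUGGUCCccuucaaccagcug
hsa-miR-8071: cGGUGGACuggagugggugg
hsa-miR-4418: cACUGCAGgacucagcag
hsa-miR-5702: uGAGUCAGcaacauaucccaug

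Peak presence chose the desert regions, so the following counts are descriptions. Of 8832 merged regions in deserts, 27.3% had a peak in at least 2 replicates; among all merged autosomal regions 31.8% did. Desert regions made up 8.93% of the 27035 regions seen repeatedly, and the other 24622 lay nearer to, or inside, a coding gene. A peak in all 3 replicates was found in 953 desert regions, or 39.5%, against 41.8% of all repeated regions. A further 707 had peaks in replicates 2 and 3, 443 in replicates 1 and 2, and 310 in replicates 1 and 3. The count rests on each library: it fell to 1399 without replicate 2 and to 1438 without replicate 3, when a peak in both of the other lists was required.

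Desert regions were mostly narrow. Their median width was 908 bp, with quartiles of 628 and 1488 bp and a widest region of 15826 bp. Other repeated regions had a median of 949 bp, and desert regions seen in 1 replicate 354 bp, but a region merged from several peaks is wider by construction. In all, 298 desert regions were under 500 bp, 48 were over 5 kb, and together they covered 3.17 Mb. Those with a peak in all 3 replicates had a median width of 1547 bp and those with a peak in exactly 2 of 714 bp.

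Signal height was close to that of repeated regions nearer genes. The pileup, which is the height of overlapping extended tags at the peak summit, had a median of 21, 23 and 20.0 tags in replicates 1, 2 and 3 of the desert regions. Other repeated regions had medians of 21, 24 and 20.0 tags. Fold enrichment, the authors' ratio of pileup to local background with 1 added to each, had a median of 3.60, 3.55 and 3.69 in desert regions and of 3.56, 3.65 and 3.76 in the others. The difference in fold, desert minus other, was −0.0435 ± 0.0692 (SD, n = 3; exact two-sided sign-flip permutation test, p = 0.5). By replicate it was 0.0346, −0.0972 and −0.0679. When replicate 2 was left out and regions were drawn anew from peaks shared by replicates 1 and 3, it was 0.0328. Local background differed by −0.0510 ± 0.150 tags (SD, n = 3; exact permutation p = 0.75), and by 0.0124 when regions were drawn anew without replicate 1. The widest peak within a region differed by −24.8 ± 22.1 bp, desert minus other (SD, n = 3; narrower in 3 of 3 replicates; exact permutation p = 0.25). With 3 pairs no p under 0.25 can result, so these tests cannot pass 0.05 and do not show that the classes are alike.

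**Figure D1:**
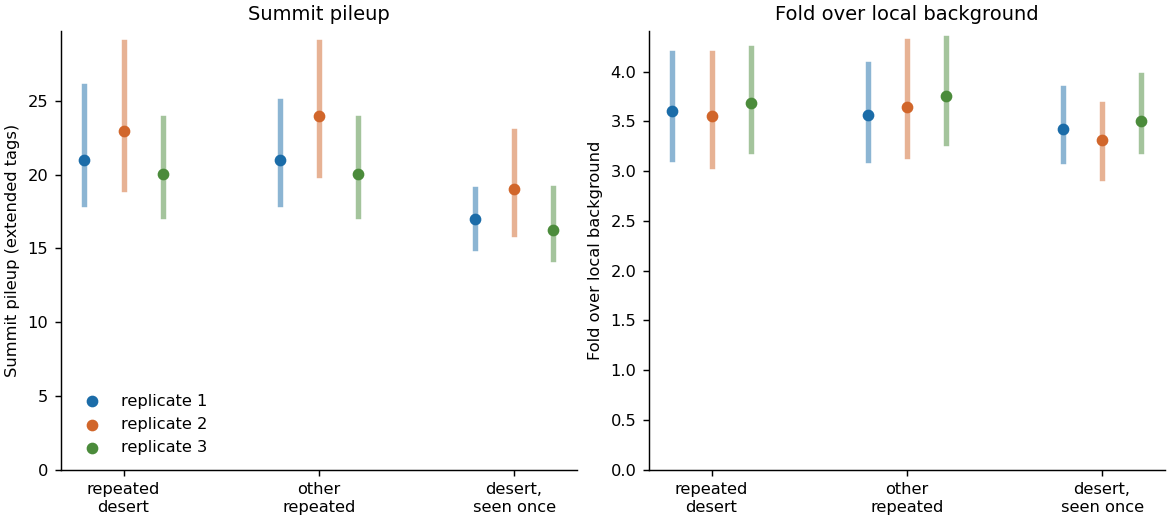
Medians (points) and quartiles (bars) over regions of the summit pileup, in extended tags, and of the fold over local background, by replicate, for repeated desert regions, other repeated regions and desert regions seen in 1 replicate. Repeated desert regions have median folds of 3.55 to 3.69, and other repeated regions 3.56 to 3.76.

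Desert regions seen in 1 replicate were lower, with median pileups of 17, 19 and 16.2 tags. Within the repeated desert regions, those in all 3 replicates had median pileups of 23, 26 and 21.9 tags and those in 2 had 19, 22 and 18.1. A fold of at least 5 was reached by 9.20%, 8.70% and 9.85% of the desert regions with a peak in replicates 1, 2 and 3. Summits of the same desert region lay a median of 285 bp apart in replicates 1 and 2, 293 bp in 1 and 3, and 252 bp in 2 and 3. Across desert regions with a peak in both lists, the fold of replicate 1 and that of replicate 3 had a Pearson correlation of 0.49 on the log2 scale (1263 regions). The pairs of replicates 1 and 2 (1396 regions) and of 2 and 3 (1660 regions) had 0.36 and 0.39. Spearman correlations were lower, with 0.41 for replicates 1 and 3, 0.29 for 1 and 2 and 0.32 for 2 and 3. In other repeated regions the Pearson values were 0.31, 0.29 and 0.34 for the same pairs, and the Spearman values 0.29, 0.27 and 0.30. Desert regions include the 18 of ribosomal DNA described below, with fold of 1.33 to 3.00, whose part in these correlations was not tested. Regions close together are not independent points.

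Peaks thinned steadily with distance from coding genes. Gene bodies held 24.3 ± 5.09 summits per Mb (SD, n = 3) and sequence under 10 kb from a gene 39.4 ± 6.94. At 50 to 100 kb the density was 12.2 ± 2.46, at 100 to 200 kb 7.26 ± 1.51, at 200 to 500 kb 2.09 ± 0.549, and at 500 kb or more 0.473 ± 0.246. Each replicate showed the same order. Sequence at least 50 kb from coding genes made up 35.3% of the 2741 Mb counted and held 9.51% ± 0.362 (SD, n = 3) of the summits.

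**Figure D2:**
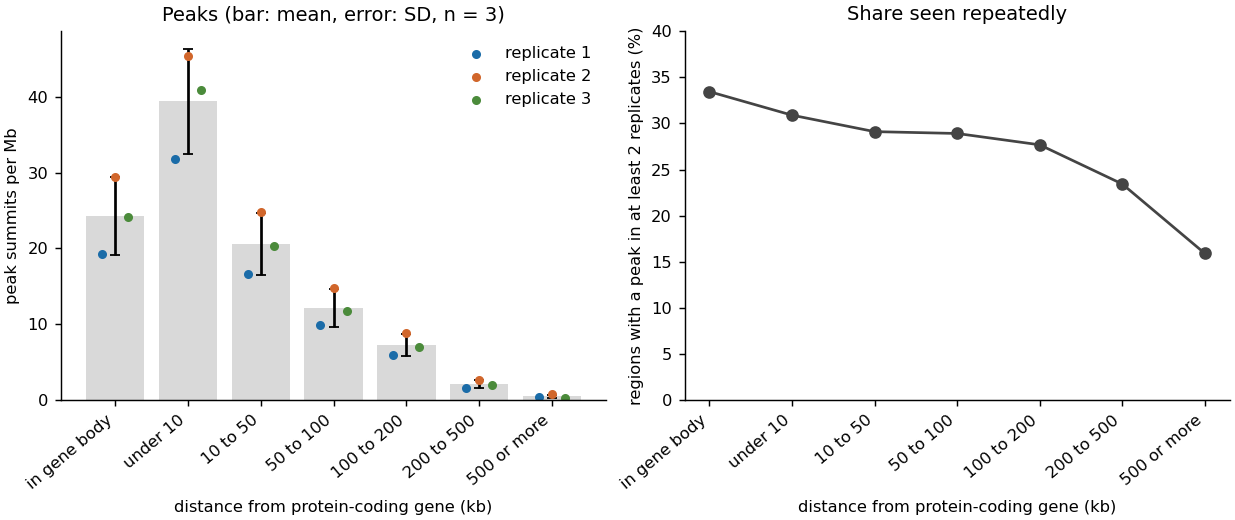
Left, peak summits per Mb of sequence by distance from the nearest protein-coding gene, with replicates as points, the mean as a bar and the SD as an error bar (n = 3). Right, the percentage of merged regions with a peak in at least 2 replicates, which goes from 33.5% in gene bodies to 15.9% at 500 kb or more.

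The share of regions seen repeatedly also went down along the same scale. It was 28.9% at 50 to 100 kb, 27.7% at 100 to 200 kb, 23.4% at 200 to 500 kb and 15.9% at 500 kb or more, where 45 of 283 regions were repeated. The desert regions had a median distance of 96.4 kb, and 1262 of 2413 lay within 100 kb of a gene. Only 12 were 1000 kb or more away.

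Just inside the 50 kb limit lay chr9:134209974-134212250 between WDR5, a subunit of histone methyltransferase complexes, and RXRA, the retinoid X receptor alpha gene. This region was 50.006 kb from WDR5 and had fold 4.16 and 3.53 in replicates 2 and 3. Next came chr3:13688433-13688945 between FBLN2, an extracellular matrix gene, and WNT7A, a Wnt ligand gene, with fold 4.06 and 3.84. Just outside lay chr12:54107580-54108267, between the homeobox gene HOXC4 and the uracil-DNA glycosylase gene SMUG1, with fold 3.15 and 4.06 in replicates 2 and 3. Another just outside, chr5:1747215-1748470 between LPCAT1, a phospholipid enzyme gene, and MRPL36, had fold 5.38 and 4.39 in replicates 1 and 2. The values just inside and just outside the cut overlapped.

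Chromosome 2 held the most desert regions, 261 or 10.8%, followed by chromosome 1 with 193 and chromosome 9 with 186. Chromosomes 18 and 19 held the fewest, 13 and 12. Relative to desert length the order was different. Chromosome 17 had 8.85 regions per Mb of desert and chromosome 22 had 8.37, while chromosomes 18, 13 and 3 had 0.369, 0.528 and 0.829. The mean over all deserts was 2.49 per Mb.

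**Figure D3:**
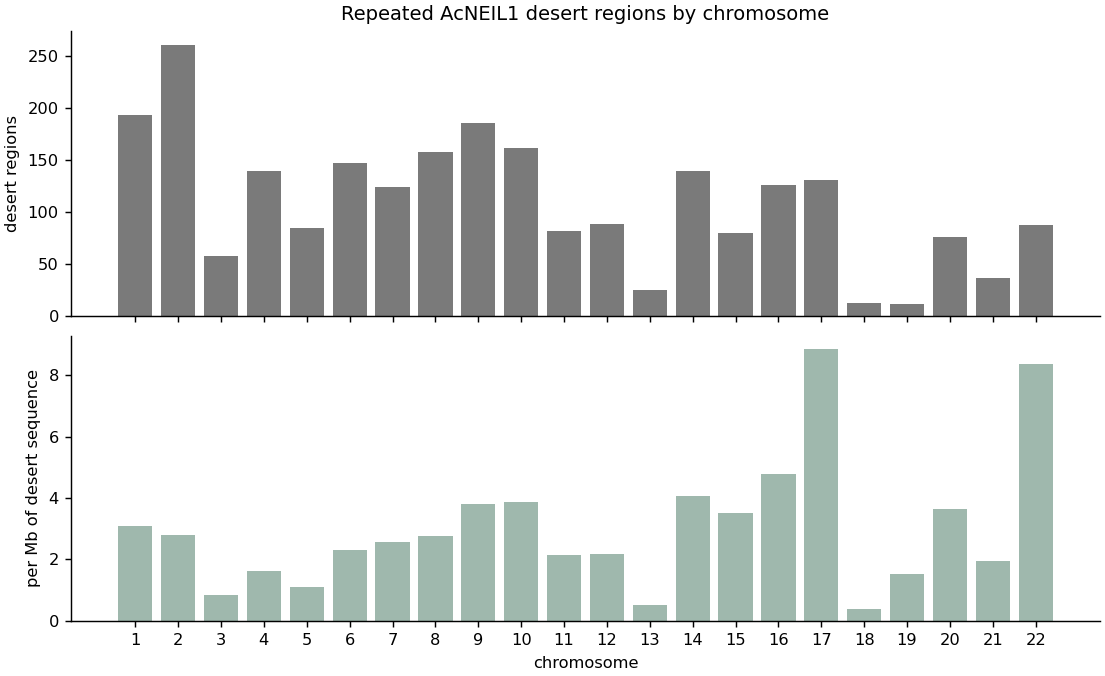
Number of repeated desert regions on each autosome (top) and the same per Mb of sequence at least 50 kb from coding genes (bottom). Chromosome 2 has the most regions (261), and chromosomes 17 and 22 have the most per Mb (8.85 and 8.37).

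Densities of desert regions and of repeated regions near genes ran partly together over chromosomes. Across the 22 autosomes the densities had a Pearson r of 0.799 and a Spearman rho of 0.653, given as a description because all values come from the same 3 libraries. Chromosome 17 held 40.1 other repeated regions per Mb and chromosome 18 held 5.16. Chromosome 19 was an exception, with 31.8 other repeated regions per Mb and 1.51 desert regions per Mb of desert. Local background at desert summits was also high on chromosome 17, with medians of 7.0, 7.87 and 6.04 tags against 4.85, 5.67 and 4.51 over all desert regions; the part of this in the counts was not tested.

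Desert regions gathered in few places. They fell in 400 deserts: 387 of the 2677 gaps of at least 100 kb between coding genes, and 13 stretches at chromosome ends. In 131 of these deserts there was 1 region, in 199 there were 2 to 9, and the 70 deserts with 10 or more held 1448 regions, or 60.0%. The median distance to the next desert region was 774 bp, and 82.0% had another within 10 kb. Neighbouring regions can be pieces of one broad zone, so the regions of a desert are not independent of each other.

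The desert with the most regions lay on chromosome 16 between FOXL1, a forkhead factor of gut mesenchyme, and C16orf95. It held 60 regions over chr16:86639352-87236983, 29 of them in all 3 replicates. A peak was present in 37, 57 and 55 of them in replicates 1, 2 and 3, with median folds of 3.50, 3.38 and 3.65. Signal there was broad in extent and moderate in height, with a highest fold of 5.16.

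The next desert, on chromosome 1 between ERRFI1, a feedback inhibitor of the EGF receptor, and SLC45A1, a sugar transporter gene, was shorter and stronger. Its 50 regions lay over chr1:8078346-8242231, and 34 had a peak in every replicate. Median folds were 4.73, 3.94 and 4.43 in replicates 1, 2 and 3, each above the median of all desert regions in that replicate. Desert regions were also dense between C8orf90 and TSNARE1 on chromosome 8, with 49 regions of median fold 3.00, 3.19 and 3.02, and between VEGFA, the blood-vessel growth factor gene, and MRPL14 on chromosome 6, with 46 regions of median fold 3.72, 3.76 and 3.67.

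**Figure D4:**
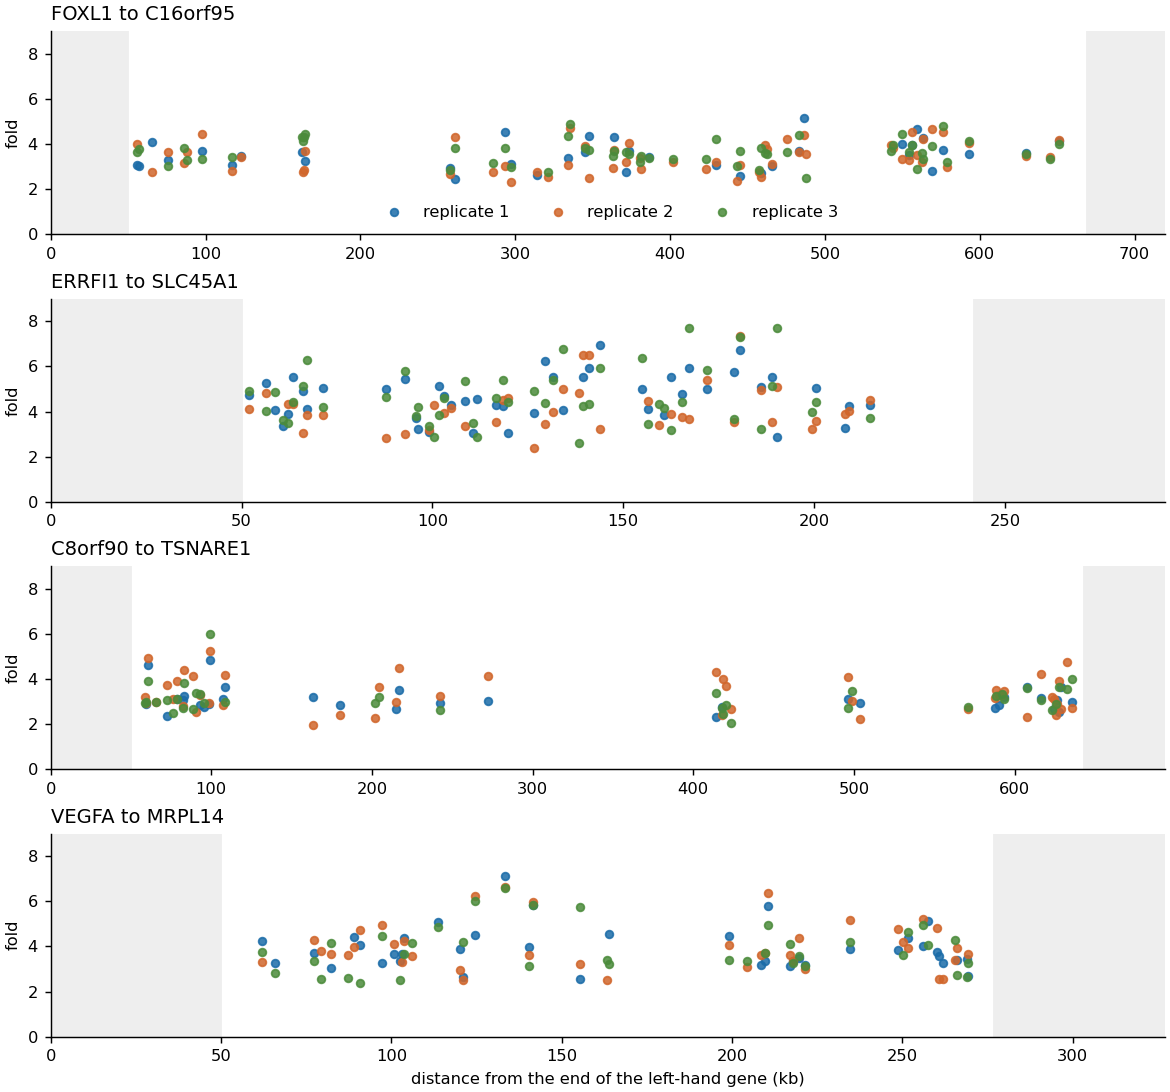
Fold over local background of every repeated desert region, by replicate, along 4 deserts, plotted by distance in kb from the end of the left-hand coding gene; grey bands are the 50 kb next to each gene, which were left out by the distance rule. Folds between ERRFI1 and SLC45A1 reach 7.69, and those between FOXL1 and C16orf95 stay at or below 5.16.

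Further deserts, named here with a choice made after their counts were seen, were well filled too. On chromosome 9 a desert of 39 regions borders IER5L. On chromosome 6, 34 regions lay beside DLL1, a Notch ligand gene, with median folds of 3.34, 3.60 and 3.54. On chromosome 10, 33 lay between RPS24, a ribosomal protein gene, and ZMIZ1, a transcriptional coactivator gene. On chromosome 5, 32 lay between PITX1, a homeobox factor of the hindlimb, and MACROH2A1, a histone variant gene. The desert between MYEOV and CCND1, the cyclin D1 gene, held 29, and that between SOX9, a factor of intestinal crypts and cartilage, and SLC39A11, a zinc transporter gene, held 26. Deserts as full lay between OLFM1 and PPP1R26 with 27, and between KIF26A and C14orf180, between LOC124903407 and DIO3, a thyroid hormone deiodinase gene, and between LRPAP1 and ADRA2C with 26 each. The deserts beside WNT4, a Wnt ligand gene, and SHH, the sonic hedgehog gene, held 24 and 23.

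The replicates did not fill these deserts evenly. Between AREG and BTC, both genes of EGF receptor ligands, on chromosome 4, peaks were present in 25, 12 and 22 of 25 regions in replicates 1, 2 and 3. Median folds there were 4.56, 3.91 and 4.67 and median pileups 18, 15.5 and 19.1 tags, so replicate 2 was lowest on all 3 measures. Between KRR1, a gene of ribosome assembly, and PHLDA1 on chromosome 12 the counts were 28, 15 and 26 of 28, and between KLF14, a zinc-finger factor gene, and MKLN1 on chromosome 7 they were 25, 15 and 21 of 25. In contrast, near SHH the counts were 12, 23 and 19 of 23, and near CCND1 17, 28 and 26 of 29.

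**Figure D5:**
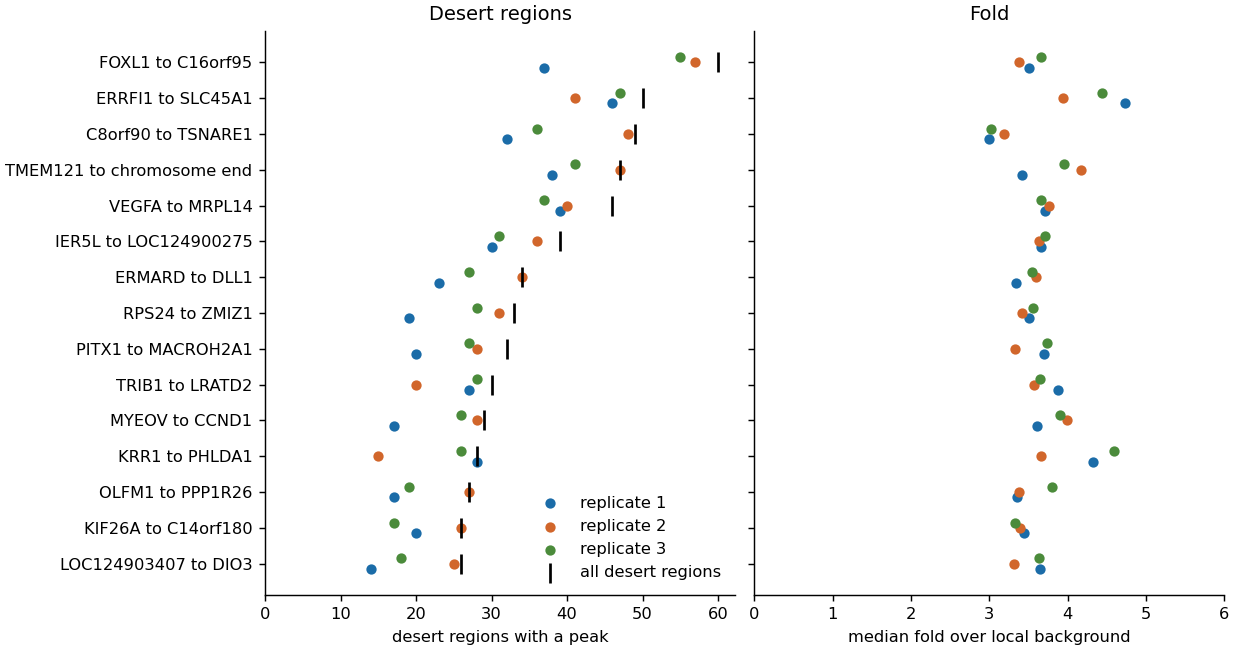
For the 15 deserts with the most regions, the number with a peak in each replicate (left, all regions as a black tick) and the median fold in each replicate (right). Replicate 2 is lowest between KRR1 and PHLDA1, with 15 of 28 regions, and has a peak in all 47 regions beyond TMEM121.

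Over the 70 deserts with at least 10 regions, replicate 2 had the most regions with a peak in 40, as the longest list, and the fewest in 12. Replicate 1, the shortest list, had the fewest in 44. The regions seen in replicates 1 and 3 but not 2 made up 12.8% of desert regions and 9.57% of other repeated regions. Their share was 0 in 22 of the 70 deserts, 52.0% between AREG and BTC, and highest, at 60.0% of 10 regions, between MYC, a growth-promoting transcription factor gene, and GSDMC. Between MYC and GSDMC peaks were present in 8, 4 and 10 of the 10 regions, with median folds of 3.17, 3.73 and 3.45. There replicate 2, with the fewest peaks, was not the lowest in fold, but its median rests on 4 regions. The choice of regions fixes part of these counts, and no cause was tested.

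The region with the highest mean rank of fold lay between ERRFI1 and SLC45A1 at chr1:8206780-8211953, 106 kb from SLC45A1, and overlapped LINC01714, a lncRNA gene. Its pileup was 29.0, 31.0 and 37.2 tags and its fold 6.73, 7.33 and 7.30, a mean of 7.12 ± 0.342 (SD, n = 3). The next lay between VEGFA and MRPL14 at chr6:43919921-43926516 over LINC01512, with fold 7.12, 6.65 and 6.60, a mean of 6.79 ± 0.290 (SD, n = 3). Its neighbour chr6:43927922-43941758, also over LINC01512, was the second widest desert region at 13837 bp, with widest peaks of 1959, 7182 and 1471 bp by replicate. Pileups there were 30, 41 and 24.8 tags and fold 5.83, 5.95 and 5.85. In fold the replicates of these regions lay close together. The first pair was chosen by fold rank averaged over the replicates, which favours both a high level and closeness.

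The third, chr17:16861473-16864802, lay between CCDC144A and TNFRSF13B, a B-cell receptor gene of the TNF receptor family, and overlapped no annotated gene. Its fold was 6.49, 5.83 and 7.88. A region between IFNE, an epithelial interferon gene, and MTAP, a gene of the methionine salvage pathway, at chr9:21685257-21687765 had fold 6.96, 6.04 and 6.06. Between BLID and UBASH3B, a phosphatase gene, chr11:122192498-122197014 lay in MIR100HG, the host transcript of a microRNA cluster, with fold 6.72, 5.32 and 7.23. Of the 10 regions with the highest mean rank, 7 overlapped a lncRNA gene, against 33.4% of all desert regions. All 10 were wider than 1488 bp, the upper quartile of desert regions, and a wider region overlaps genes more easily.

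On chromosome 4, 2 of the 10 lay side by side between FAT1, an atypical cadherin gene, and ZFP42, a marker gene of pluripotent cells, in the lncRNA gene LOC102723906. The wider, chr4:186959589-186971945, was 12357 bp long, with widest peaks of 3476, 12305 and 4879 bp in replicates 1, 2 and 3. Its pileups were 31.0, 72.0 and 42.9 tags and its fold 5.47, 6.86 and 6.53. Replicate 2 was highest here. The last, chr8:127223373-127227879 between LRATD2 and POU5F1B, a retrogene of the POU5F1 family, had fold 6.66, 5.32 and 6.88, and there replicate 2 was lowest.

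A lncRNA gene was overlapped by 807 desert regions, or 33.4%. Desert regions seen in 1 replicate did so in 31.5%, and lncRNA genes take up 25.5% of desert sequence. The summits, which do not depend on region width, lay in a lncRNA gene in 31.6% ± 2.45 (SD, n = 3) of all desert peaks. The ends of lncRNA genes, taken as 1000 bp on either side, were touched by 265 desert regions (11.0%) and by 8.07% of those seen once, which are narrower. Altogether 315 lncRNA genes were overlapped, and 1421 desert regions (58.9%) overlapped no annotated gene of any kind. Another 50 kb count, of lncRNA genes lying wholly in deserts, was 5186. The 315 are not a share of these, because an overlapped gene can reach nearer to a coding gene.

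The lncRNA gene with the most regions was PITX1-AS1, 311 kb long on chromosome 5, with 32. Next came LOC105369844 between KRR1 and PHLDA1 with 27, and LINC-PINT, a p53-induced transcript gene, with 23. SCIRT between VEGFA and MRPL14 had 20 in 78.9 kb, and ZMIZ1-AS1 had 19 in 124 kb. In LOC105369844 the median pileups were 19.0, 15.0 and 18.1 tags, and in SCIRT 20, 24.5 and 21 tags, so the first was lowest and the second highest in replicate 2.

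At lncRNA promoters inside desert regions, the sequence was richer in CG than at other desert lncRNA promoters. A promoter entry was found for 3468 lncRNA genes in deserts, and 56 of these windows overlapped a repeated desert region. Their median GC content was 60.2% and their median number of CG per 300 bases was 8. The 65 that overlapped a region seen once had 57.7% and 6, and the other 3347 had 43.3% and 3. Promoters of 15100 coding genes had a median GC content of 63.0% and 22 CG. At least 10 CG were found in 42.9% of the 56, in 11.2% of the other desert lncRNA promoters and in 73.0% of coding-gene promoters. These are descriptions of sequence windows, and a gene with several starts was counted by the one inside a desert region.

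In all, 536 coding genes were the nearest to a desert region. The comparison is with the 7165 coding genes that have at least 50 kb free of coding genes on a side, called bordering genes; gaps under 100 kb between genes cannot hold a desert region. TMEM121 was nearest to 47 desert regions, C16orf95 to 36, ADRA2C, an adrenergic receptor gene, and ERRFI1 to 32 each, and KRR1 and TRIB1, a pseudokinase gene, to 27 each. Forkhead factors were 9 of the nearest genes (1.68%) and 0.461% of bordering genes. FOXL1 was nearest to 24 regions, FOXD4L5 to 14 and FOXF1 to 13. GATA, TBX, KLF and TFAP2 factors were 8 (1.49% against 0.419%), led by KLF14 with 14 regions and KLF4 with 6.

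Among the other families, homeobox factors were 9 of the nearest genes (1.68% against 1.02%), with POU5F1B nearest to 23 regions, PITX1 to 16 and LHX1 to 11. ZNF genes were 6 (1.12% against 2.18%), olfactory receptors 3 (0.560% against 1.61%) and potassium channels 2 (0.373% against 0.796%). Wnt ligands and Frizzled receptors were 3 (0.560% against 0.223%), of which WNT4 was nearest to 23 regions. The rest of the 14 families counted went both ways. Cadherins and protocadherins were 5 (0.933% against 0.391%), FGF and BMP ligands 4 (0.746% against 0.321%) and SOX factors 2 (0.373% against 0.167%). Leucine-rich repeat and immunoglobulin adhesion genes were 3 (0.560% against 0.405%) and nuclear receptors 1 (0.187% against 0.126%). Glutamate and GABA receptors were 2 (0.373% against 0.363%) and solute carriers 8 (1.49% against 2.04%). No family was tested, and a gene counts once however many regions lie near it.

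Beyond TMEM121, at the end of chromosome 14, 47 desert regions lay over chr14:105580450-105920657, and 44 of them overlapped the immunoglobulin heavy-chain locus (IGH). The other 3 lay just before it, and the tallest of all 47, chr14:105582534-105584927 with pileups of 116, 177 and 133 tags, was one of these. The locus's constant and joining segments are not listed as protein-coding genes in the table, which is why the locus counts as a desert. With immunoglobulin and T cell receptor segments on all autosomes counted as coding, an alternative chosen after seeing the data, 2362 desert regions were left. All 44 had a peak in replicate 2, 35 had one in replicate 1 and 38 in replicate 3. Median pileups of the 44 were 30, 39.5 and 25.8 tags and median folds 3.38, 4.13 and 3.97. Regions over a constant segment numbered 9, and 9 touched diversity segments. The region over IGHE, chr14:105594647-105602511, had pileups of 46.0, 72.0 and 43.9 tags and fold 4.32, 4.96 and 5.61, while 2 regions over IGHG3, chr14:105765140-105769655 and chr14:105770007-105772327, had fold 3.55, 7.01 and 3.91 and fold 2.95, 5.61 and 2.32. Both IGHE and IGHG3 encode the constant part of antibody chains. The constant segments of the IGHG family resemble each other, so tags there may be shared between copies by the authors' alignment.

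The microRNA genes MIR1-1 and MIR133A2, whose products are known from muscle, lay between GATA5, a zinc-finger factor gene, and SLCO4A1, an organic anion transporter gene, on chromosome 20. There were 6 desert regions in that gap, all with a peak in each replicate. The one over MIR1-1, chr20:62545496-62557025, also holds the CRMA promoter printed above, and had pileups of 36.0, 50.0 and 30.5 tags. The one over MIR133A2, chr20:62561624-62565232, had pileups of 28.0, 39.0 and 24.8 tags and fold 4.23, 5.09 and 3.84. From the centre of the hairpin to the nearest summit of any replicate, the distance was 118 bp for MIR1-1 and 1259 bp for MIR133A2. Replicate 2 was highest in both.

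Very tall pileups with low fold marked the ribosomal DNA on the short arm of chromosome 21. There, 18 desert regions lay at chr21:8203496-8471476, with pileups of 206 to 1110 tags, fold of 1.33 to 3.00 and local background of 133 to 627 tags. The widest region of all, chr21:8450964-8466789, had pileups of 965, 872 and 799 tags and fold 2.38, 2.48 and 2.30. These 18 were among 21 desert regions with a pileup of at least 200 in any replicate. The 3 copies of the 45S ribosomal RNA gene, RNA45SN2, RNA45SN3 and RNA45SN1, lay between the regions, and 0 peaks overlapped them. The closest regions lay 2044 to 4462 bp from a copy's ends. The copies are near-identical in sequence, so the placing of tags among them is uncertain. Without these 18 regions, an alternative chosen after seeing the data, the median pileups of the remaining 19 desert regions of chromosome 21 were 20.0, 24.0 and 17.2 tags.

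Outside the ribosomal DNA, the tallest pileups were at chr4:189846005-189847261 in FRG1-DT, a transcript beside FRG1, with 187, 261 and 161 tags and fold 5.53, 7.10 and 4.39. A region at chr2:87416952-87420751 between LOC124907854 and PLGLB2, a member of a duplicated gene family, had 54.0, 254 and 50.6 tags, so its height rested on replicate 2.

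The desert regions farthest from any coding gene lay on chromosome 4 between C4orf33 and PCDH10, a protocadherin gene. There were 9, at 1385 to 1425 kb from the nearest coding gene, and 4 had a peak in all 3 replicates. The farthest, chr4:131723474-131724469, had pileups of 26.0, 34.0 and 23.9 tags and fold 2.89, 2.51 and 3.12. Folds of the 9 regions lay between 2.26 and 3.74, and their median background of 10.1, 10.3 and 7.0 tags was above that of all desert regions in each replicate.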

How the data were processed

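AcNEIL1 ChIP-seq peaks of 3 HCT116 libraries were used, each called by the authors with MACS 2.1.1.20160309 against the input of the same number, without pooling, at a q cutoff of 0.05 and at most 2 tags per position, per the file headers. The deposited signal is the pileup at the summit; the larger library of a pair was scaled to the smaller, per the file headers, so pileups of replicate 3 need not be whole. The deposited −log10 p and −log10 q values are the caller's. The deposited fold is a ratio of pileup to local background, from which the background was recovered. Aligner settings are not given in the sources used, and the peak lists hold no counts outside peaks.

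Coordinates are 1-based in hg38. Genes came from a RefSeq table of GRCh38.p14, the same build, with 718 rows on scaffolds or alternate loci dropped and 58957 genes kept; it gives no strand and no exons. Per replicate, a region takes the values of its strongest peak. Sequence length by distance was counted in steps of 1 kb over bins of 1 Mb that hold a gene or peak. Differences between classes used the medians of the 3 replicates and exact sign-flip tests. Region merging and distances were tested on simulated data. Named regions were the 10 that ranked highest by mean fold rank among regions seen in all 3 lists, the 3 widest, the 3 farthest, those nearest the cut, the best-filled deserts and lncRNA genes, and the nearest genes by family; the replicate pattern of deserts, the ribosomal DNA, the microRNA genes and the tallest pileups were chosen after their values were seen. The regions and lists were chosen with earlier results of these data known. Alternatives were other distances, stricter peaks, equal numbers of peaks, other merging rules, a peak in all replicates and leaving out each replicate. Python 3.11.15, pandas 2.3.3, NumPy 2.4.6, SciPy 1.17.1 and matplotlib 3.10.9 were used.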

Additional observations from a re-analysis of the deposited data

Results flagged for a closer look

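Chromosome X was left out of the comparisons, and signal appeared there as well. It held 396 merged regions, 88 of which had a peak in at least 2 of the 3 replicates. Of the 396, 31 lay at least 50 kb from a coding gene, and 14 of those 31 were seen repeatedly. No explanation was tested.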

How the results depend on the processing

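The 10 results were recomputed under up to 12 alternatives, 2 of them chosen after seeing the data, which gave 116 values. Of these, 80 were counted as the same, 33 as moved and 3 as changed in sign. For the number of regions, the same meant within a fixed ratio of the reported number. For the differences from other repeated regions it meant only an unchanged sign. Shares, widths, pileups and folds had to stay within the interval or SD of the reported value. The number of desert regions was 3984 at a distance of 25 kb, 1151 at 100 kb, 743 at a −log10 q of at least 5 and 953 with a peak in all 3 replicates. It lay between 1399 and 1712 when a replicate was left out. Their share of repeated regions was 14.7% at 25 kb, 4.26% at 100 kb, 8.56% with the stricter q, 9.43% with peaks within 500 bp joined and 8.43% with all 3 replicates, and 8.39% to 8.78% when a replicate was left out. The share with a peak in all 3 replicates was 33.9% with the stricter q, 37.3% when an overlap of 50% of the shorter peak was needed and 45.1% with joined peaks. The share overlapping a lncRNA gene was 31.1% at 25 kb, and 31.8% to 34.6% without a replicate. Median width was 1505 bp with the stricter q, 998 bp with equal numbers of peaks, 871 bp with the 50% overlap, 1499 bp with joined peaks and 1547 bp with all 3 replicates, and 831 to 1028 bp without a replicate. Median pileup was 26.9 tags with the stricter q and 23.6 with all 3 replicates, and 21.5 to 23 without a replicate. Median fold was 4.35 with the stricter q, 3.77 with equal numbers, 3.69 with joined peaks and 3.80 with all 3 replicates, and 3.59 to 3.72 without a replicate. The share on chromosome 2, which held most under each alternative, was 8.81% at 25 kb and 9.87% to 11.8% without a replicate. The difference in fold from other repeated regions turned to 0.000870 with the stricter q and ran from −0.0880 to 0.0328 without a replicate; that in local background ran from −0.255 to 0.0124. A stricter rule keeps fewer and stronger peaks by construction; other causes were not tested. No paired analysis was possible because the inputs, which carry the same replicate numbers, entered only as controls of the deposited peaks; this concerns ChIP against input, while desert and other regions were compared within each replicate. The caller's cutoff limits what depth can show: no peak means none called.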
